A study of Mus musculus with 72 samples.

Results

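Sgk1, Tsc22d3, Fkbp5, Klf9, Klf15 and Dusp1 are genes that glucocorticoid hormones switch on in many tissues. They were taken by symbol from the gene table of mouse heart arrays, and all 6 were found, each with a single probe set, among 19505 genes tested. The hearts came from female CB6F1/Hsd mice, shipped at 100 to 120 days of age, that received a single full-body exposure and were kept for 16 months. Gamma rays from Cs-137 (Cs) were given at 40, 80, 120 or 160 cGy, silicon ions (Si, 260 MeV/n) at 4, 8, 16 or 32 cGy, and titanium ions (Ti, 1000 MeV/n) at 3, 6.5, 13 or 26 cGy. Each radiation type had a sham group of its own, placed in the animal holders without irradiation, so that 72 hearts on 72 Clariom S Mouse arrays fell into 15 groups of 4 or 5 hearts. Whole heart tissue was hybridised, in 2 processing batches of 43 and 29 arrays, and p-values measure the spread between these hearts. Si sham had no heart in batch 1, Cs 160 cGy had none in batch 2 and Ti 6.5 cGy had 1 there.

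Corticosterone, the main glucocorticoid of mice, rises and falls over the day and with stress. It binds the glucocorticoid receptor, which enters the nucleus, binds DNA as a pair of receptor molecules and raises transcription of its target genes, often within an hour. In heart muscle the receptor acts on contraction, metabolism and the daily rhythm of gene expression. Sgk1 encodes a kinase that sets the surface level of ion channels and transporters. Tsc22d3 encodes GILZ, which restrains inflammatory transcription factors, and Fkbp5 encodes a co-chaperone that lowers the receptor's affinity for hormone and so closes a feedback loop. Klf9 and Klf15 encode zinc finger transcription factors, of which KLF15 acts on amino acid and lipid use in heart and skeletal muscle. Dusp1 encodes a phosphatase that switches off MAP kinases, and it is also an immediate early gene that growth factors and cell stress induce. No source used here gives the hour of day at which the hearts were collected.

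Promoter windows of 250 bases before to 50 bases after the start site were available in RefSeq (GRCm38.p6) for all 6 genes, 13 windows in all, of which Sgk1 had 6 and Tsc22d3 had 3. The windows below are shown because they hold the letters of binding motifs that bear on hormone, clock and cAMP signals. Capitals mark matches on either strand to ACANNNTGT (the core of a glucocorticoid response element), TGTTCT (the hexamer within such an element), CACGTG (E-box) or TGACGTCA (CRE, a cAMP response element). Where capitals run on, matches overlap.
Sgk1, chr10:21978422-21978721, plus strand: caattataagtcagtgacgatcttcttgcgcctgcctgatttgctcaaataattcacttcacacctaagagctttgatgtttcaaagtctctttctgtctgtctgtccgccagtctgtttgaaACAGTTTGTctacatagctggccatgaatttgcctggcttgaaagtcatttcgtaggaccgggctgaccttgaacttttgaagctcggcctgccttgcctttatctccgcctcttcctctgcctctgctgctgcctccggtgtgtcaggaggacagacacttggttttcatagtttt
Sgk1, chr10:21993640-21993939, plus strand: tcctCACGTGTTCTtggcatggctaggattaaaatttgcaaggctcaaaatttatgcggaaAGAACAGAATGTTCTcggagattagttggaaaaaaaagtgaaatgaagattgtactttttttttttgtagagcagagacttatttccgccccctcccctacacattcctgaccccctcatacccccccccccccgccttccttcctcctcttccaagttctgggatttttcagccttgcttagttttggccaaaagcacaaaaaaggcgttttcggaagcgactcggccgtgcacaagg
Klf15, chr6:90462326-90462625, plus strand: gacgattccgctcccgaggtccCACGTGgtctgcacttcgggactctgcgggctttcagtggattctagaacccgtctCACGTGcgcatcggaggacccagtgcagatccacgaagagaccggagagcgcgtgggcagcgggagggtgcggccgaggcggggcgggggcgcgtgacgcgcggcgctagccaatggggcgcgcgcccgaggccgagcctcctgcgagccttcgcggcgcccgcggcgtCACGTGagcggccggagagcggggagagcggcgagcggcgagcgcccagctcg
Dusp1, chr17:26508423-26508722, minus strand: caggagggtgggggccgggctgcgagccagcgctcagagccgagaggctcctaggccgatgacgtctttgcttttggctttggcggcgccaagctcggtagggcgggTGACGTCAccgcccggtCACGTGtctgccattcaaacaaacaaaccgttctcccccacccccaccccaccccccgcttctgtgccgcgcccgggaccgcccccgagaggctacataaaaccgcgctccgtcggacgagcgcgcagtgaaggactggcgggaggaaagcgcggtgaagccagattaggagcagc

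The core ACANNNTGT was found in 2 of the 6 Sgk1 windows and in no window of the other 5 genes, and 6.85% of 32851 RefSeq windows of this length held it. In the second Sgk1 sequence the core starts at position -186 from the start site and overlaps 2 copies of the hexamer, at -189 and -180. The hexamer TGTTCT was found in 3 windows of Sgk1 and 1 of Tsc22d3, against 19.0% of all windows. The E-box, to which the clock activators CLOCK and BMAL1 bind, was found in 4 of the 13 windows, against 7.15% of all windows. These windows belonged to Sgk1, Fkbp5, Klf15 and Dusp1. Klf15 held 3 copies, at -228, -172 and -3. The CRE was found in Dusp1, against 1.79% of all windows, and the D-box TTATGTAA in none of the 13, against 0.938%. The Klf9 window held none of the 5 motifs. A match gives the letters only and does not show binding.

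Levels are log2 signals after quantile normalization, with the processing batch removed and the group means kept, and they are given in this form unless a batch is named. On every array each of the 6 genes exceeded the negative controls' median, by at least 1.85 (Klf15), 2.10 (Sgk1), 2.86 (Fkbp5), 3.36 (Tsc22d3), 4.04 (Klf9) and 5.10 (Dusp1) on the log2 scale as deposited. Klf9 and Dusp1 were above the brightest 10% of these controls on all 72 arrays, Tsc22d3 on 69, Fkbp5 on 48, Sgk1 on 7 and Klf15 on 0. On a dim probe set an array can understate a difference. Groups accounted for 49.4% of the variance of Sgk1, 42.6% of Tsc22d3, 51.7% of Fkbp5, 45.8% of Klf9, 27.5% of Klf15 and 34.4% of Dusp1, where the median of all genes was 22.6%. The tissue label was borne out by its markers, since the mean of 7 ventricular cardiomyocyte genes ran from 11.75 to 12.10 over the 72 hearts against a median of 5.50 over all genes. The mean of 5 atrial genes ran from 6.10 to 12.84 and that of 6 hepatocyte genes from 4.72 to 8.98, and their part in the results was not tested. In whole heart tissue, fewer cells of a type and less RNA per cell cannot be told apart.

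**Figure D1:**
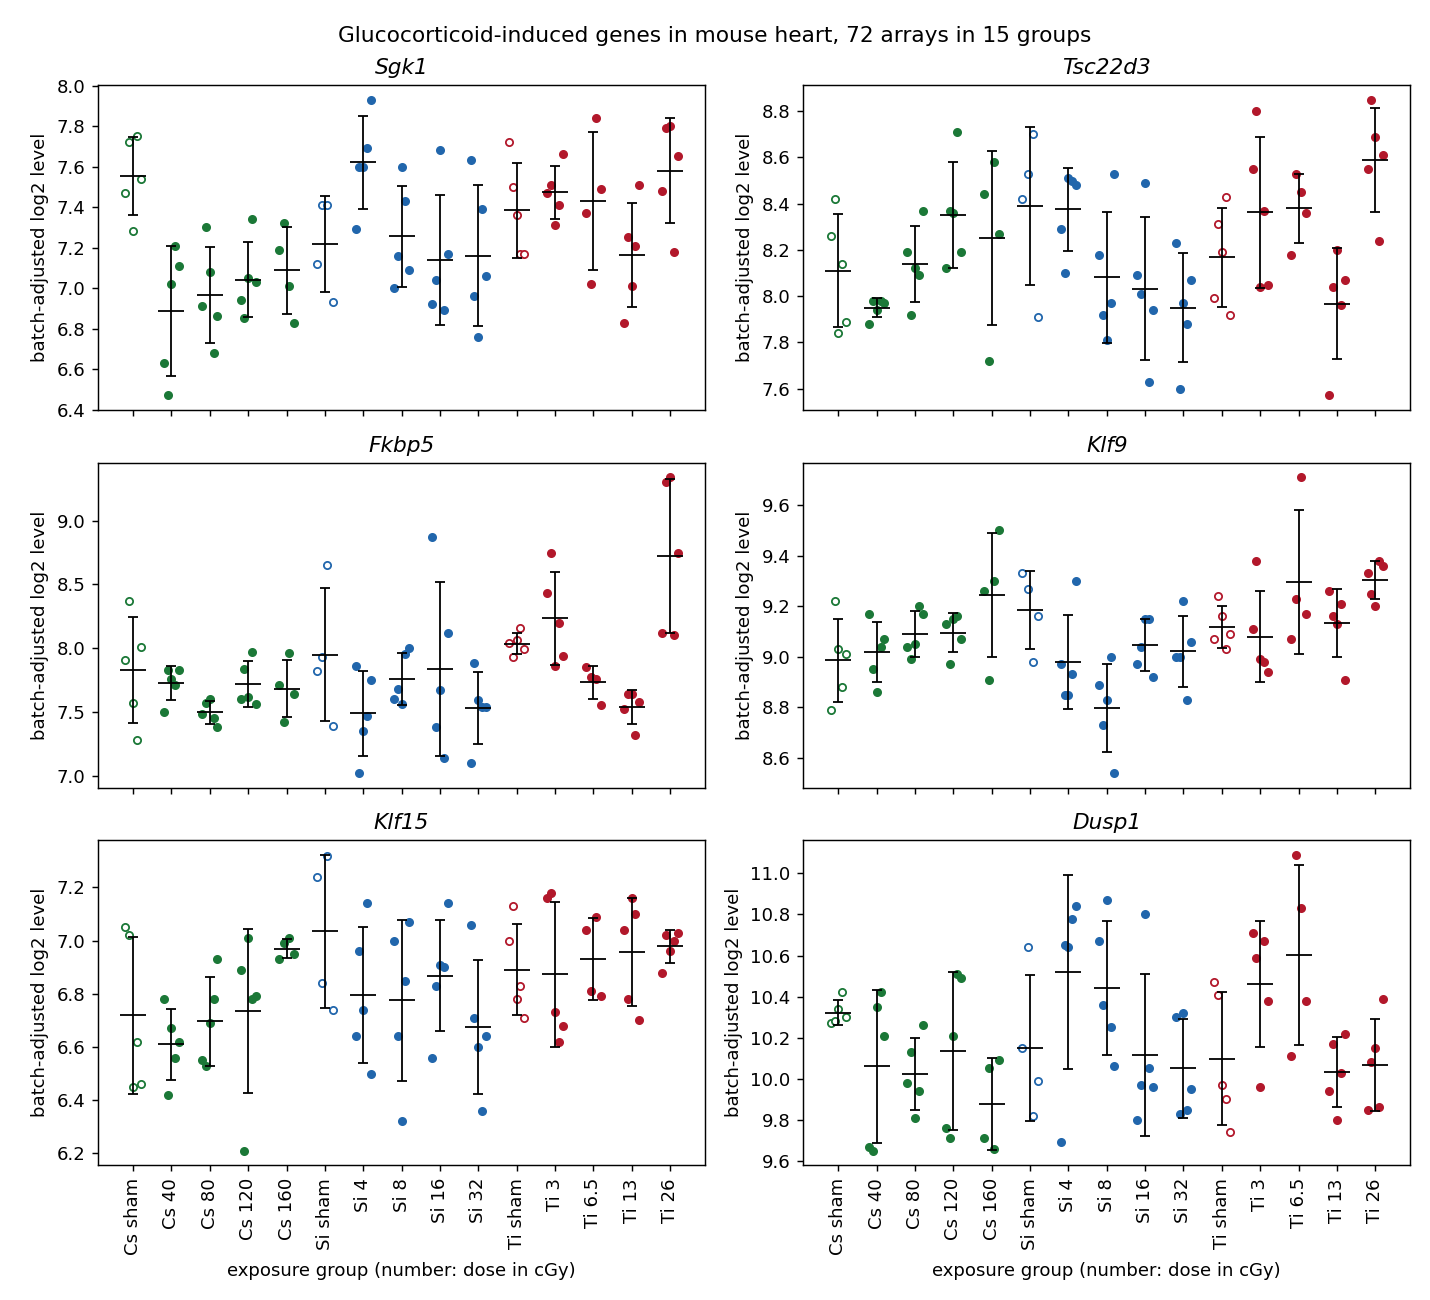
Batch-adjusted log2 level (y axis) of the 6 genes in 15 exposure groups (x axis), with a point per heart, open for sham, and black bars for the mean and SD of 4 or 5 hearts. Sgk1 is lower in the 4 Cs dose groups (means of 6.89 to 7.09) than in Cs sham (7.56), and Fkbp5 is highest at Ti 26 cGy (8.72).

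Sgk1 was lower than in sham at each of the 4 gamma doses, and the calls were firmer at 40 and 80 cGy than at 120 and 160 cGy. The 5 Cs sham hearts had Sgk1 levels of 7.47, 7.72, 7.28, 7.75 and 7.54. At 40 cGy the levels were 6.63, 6.47, 7.02, 7.21 and 7.11, and every one of these hearts lay below every sham heart. At 80 cGy they were 6.91, 7.30, 7.08, 6.68 and 6.86, and at 120 cGy they were 6.94, 6.85, 7.05, 7.34 and 7.03. The 4 hearts at 160 cGy had 7.19, 7.32, 7.01 and 6.83. A single heart of each of these 3 higher doses reached above the lowest sham heart (7.28), so the groups overlapped there.

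The differences from Cs sham were tested with limma, with the processing batch as a term, and a gene was called at a Benjamini-Hochberg adjusted p under 0.25, the threshold of the study. Sgk1 differed by -0.67 (SE 0.14, adjusted p = 0.101 in limma) at 40 cGy, which is 0.631 times the sham level. The difference was -0.59 (SE 0.14, adjusted p = 0.15) at 80 cGy, -0.51 (SE 0.14, adjusted p = 0.236) at 120 cGy and -0.42 (SE 0.15, adjusted p = 0.230) at 160 cGy, by the same fit. These 4 comparisons share the 5 Cs sham hearts and so are not independent of each other. From the lowest to the highest dose, 0.22%, 0.482%, 0.682% and 6.91% of all genes were called, and in 0.687%, 0.872%, 0.948% and 2.07% of genes every dose heart lay below every sham heart. With single hearts left out, the call was kept in 21 of 24 fits for 40 cGy, 17 for 80 cGy, 11 for 120 cGy and 13 for 160 cGy. Under other processing it was kept in 7 of 14 alternatives for 40 cGy, 8 of 14 for 80 cGy, 5 of 14 for 120 cGy and 3 of 13 for 160 cGy. The batch of 2 arrays was in doubt, Cs 160 cGy replicate 4 and Ti 6.5 cGy replicate 3. The 160 cGy call was lost when these were counted to batch 2 (-0.49, adjusted p = 0.271 in limma) or left out (-0.33, adjusted p = 0.422). With the 4 doses combined in a fit over all 72 arrays, Sgk1 differed by -0.56 (SE 0.13, 95% interval -0.81 to -0.30, adjusted p = 0.0325 in limma), where 0.436% of genes were called.

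Dose means lay below the sham mean in both batches, on values without batch adjustment. In batch 1 the mean of Sgk1 was 7.43 in 3 sham hearts, 6.64 at 40 cGy, 7.03 at 80 cGy and 6.88 at 120 cGy (3 hearts each), and 7.02 in the 4 hearts at 160 cGy. In batch 2 it was 7.71 in 2 sham hearts, 7.23 at 40 cGy, 6.84 at 80 cGy and 7.25 at 120 cGy (2 hearts each), and no heart of the 160 cGy group was in batch 2. Within batch 1 the difference for all doses was -0.53 (SE 0.17, adjusted p = 0.539 in limma) and within batch 2 it was -0.61 (SE 0.17, adjusted p = 0.671), and neither was called in these smaller fits. Among single doses, the difference of -0.88 at 80 cGy in batch 2 passed (adjusted p = 0.119 in limma), where 400 of 19505 genes were called.

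**Figure D2:**
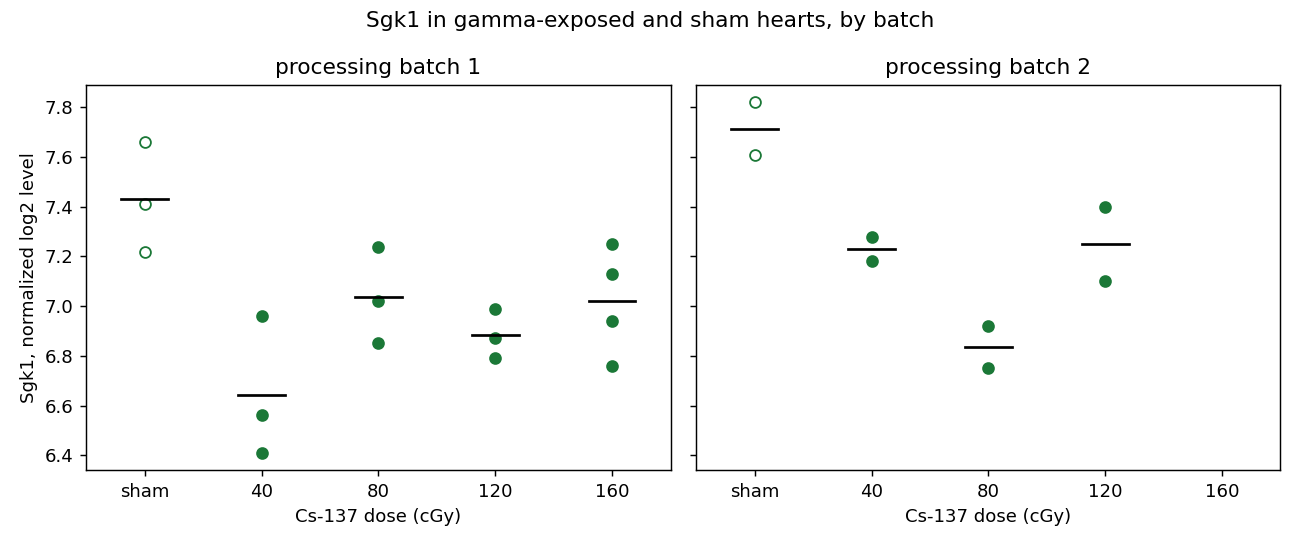
Normalized log2 level of Sgk1 (y axis, without batch adjustment) by Cs-137 dose in cGy (x axis), with processing batch 1 on the left and batch 2 on the right, a point per heart and a bar at each mean. The sham mean is 7.43 in batch 1 and 7.71 in batch 2, above every dose mean of its batch.

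The size of this difference depended on the sham hearts. Mean Sgk1 was 7.56 ± 0.19 (SD, n = 5) in Cs sham, 7.38 ± 0.23 (n = 5) in Ti sham and 7.22 ± 0.24 (n = 4) in Si sham. Cs sham was thus the highest of the sham groups, by 0.34 (SE 0.17, adjusted p = 0.410 in limma) over Si sham and by 0.17 (SE 0.16, adjusted p = 0.813) over Ti sham. Set against the sham hearts of all 3 types together, an alternative chosen after seeing the data, Sgk1 at the 4 Cs doses combined was still called at -0.39 (SE 0.09, adjusted p = 0.108 in limma), and no single dose was (differences of -0.50, -0.42, -0.34 and -0.30 from the lowest to the highest dose, adjusted p of 0.329 to 0.538). For the 4 Cs doses combined, 182 of 19505 genes were called against these sham hearts. Against Cs sham, the call for the 4 doses combined was lost without Cs sham replicate 4 (adjusted p = 0.252 in limma), the sham heart with the highest level. Ordered by their means, the 4 Cs dose groups were the lowest of the 15, from 7.09 ± 0.21 (n = 4) at 160 cGy to 6.89 ± 0.32 (n = 5) at 40 cGy. Each of the 14 steps in that order was at most 0.13, under the SD of both neighbours, so no neighbouring groups differed beyond their spread. The highest group was Si 4 cGy at 7.62 ± 0.23 (n = 5).

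Along a straight line of dose, Sgk1 had a slope of -0.002 per cGy in gamma-exposed hearts (SE 0.0011, adjusted p = 0.559 in limma), which was not called. None of the 6 genes was called there, against 1.55% of all genes. Of the 6, 2 had an unadjusted p under 0.05 (Tsc22d3 and Klf9), as did 10.5% of all genes. A cubic B-spline of dose passed for Sgk1 (adjusted p = 0.0969 in limma), against 4.09% of genes. The level was lowest at the lowest dose and higher at each further dose, from 6.89 over 6.97 and 7.04 to 7.09, steps that lay within the SD of 0.18 to 0.32.

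In Si-exposed hearts mean Sgk1 was 7.62, 7.26, 7.14 and 7.16 from 4 to 32 cGy, against 7.22 in Si sham. In Ti-exposed hearts it was 7.47, 7.43, 7.16 and 7.58 from 3 to 26 cGy, against 7.38 in Ti sham. None of these 8 differences was called. Of the 3 contrasts between radiation types, that of Cs and Si was called for Sgk1: the difference from sham over all Cs doses minus that over all Si doses was -0.64 (SE 0.19, adjusted p = 0.142 in limma), against 2.20% of genes called in that contrast. That call was lost without Cs sham replicate 4 or Si sham replicates 1 or 4 (adjusted p up to 0.356). Cs sham lay 0.34 above Si sham, and what part the sham groups had in this contrast was not tested. Si sham had no heart in batch 1, and among batch 2 arrays alone it was -0.67 (SE 0.21, adjusted p = 0.530). Against the Ti doses it was -0.59 (SE 0.18, adjusted p = 0.503 in limma), where 0.0615% of genes were called. Between Si and Ti the difference was 0.05 (SE 0.19, 95% interval -0.33 to 0.43), with 0.779% of genes called.

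Other genes moved with the gamma groups in which Sgk1 was low. The clock activator Arntl, which encodes BMAL1, was at 7.48 ± 0.28 in Cs sham and at 6.16, 6.84, 5.37 and 5.30 from the lowest to the highest dose. It was at 5.30 ± 0.52 in Si sham and 7.05 ± 0.39 in Ti sham. The mean level of 13 clock repressors and outputs ran from 7.06 to 7.50 over the Cs sham hearts and from 7.43 to 8.16 over the Cs dose hearts, and 10 of them rose and 0 fell for all Cs doses together, where 0.436% of all genes were called. Si sham hearts had 7.99 to 8.19 on that list beside an Sgk1 mean of 7.22 ± 0.24, within the SD of the mean at Cs 160 cGy (7.09 ± 0.21). Over the 15 group means Sgk1 had r = 0.48 with Arntl and -0.68 with Dbp, a clock output. After group means were removed, r was 0 with Arntl and -0.09 with Dbp. Of 23 immediate early genes, 2, 4, 1 and 5 fell from the lowest to the highest dose, and 1 rose at the highest, where 0.22%, 0.482%, 0.682% and 6.91% of all genes were called. Their mean level was 6.86 to 7.10 over the Cs sham hearts and 6.45 to 7.09 over the Cs dose hearts. Nr4a1, an orphan nuclear receptor that responds fast to hormone and cAMP, fell by 1.07 (SE 0.26, adjusted p = 0.201 in limma) at 40 cGy. These comparisons share the Cs sham hearts with those of Sgk1, and the part of these genes in the Sgk1 result was not tested. Of 51 marker genes from 11 cell type lists, 0 were called in limma at 40 and at 80 cGy or for all Cs doses together. At an unadjusted p under 0.05 there were 0, 9 and 5 of the 51, against 5.12%, 6.87% and 6.46% of all genes. At 120 cGy 1 was called (Jchain, up), which is 1.96% of the markers against 0.682% of all genes. At 160 cGy 3 were called (Alas2 up, Cldn5 and Myl3 down), which is 5.88% of the markers against 6.91% of all genes.

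**Figure D3:**
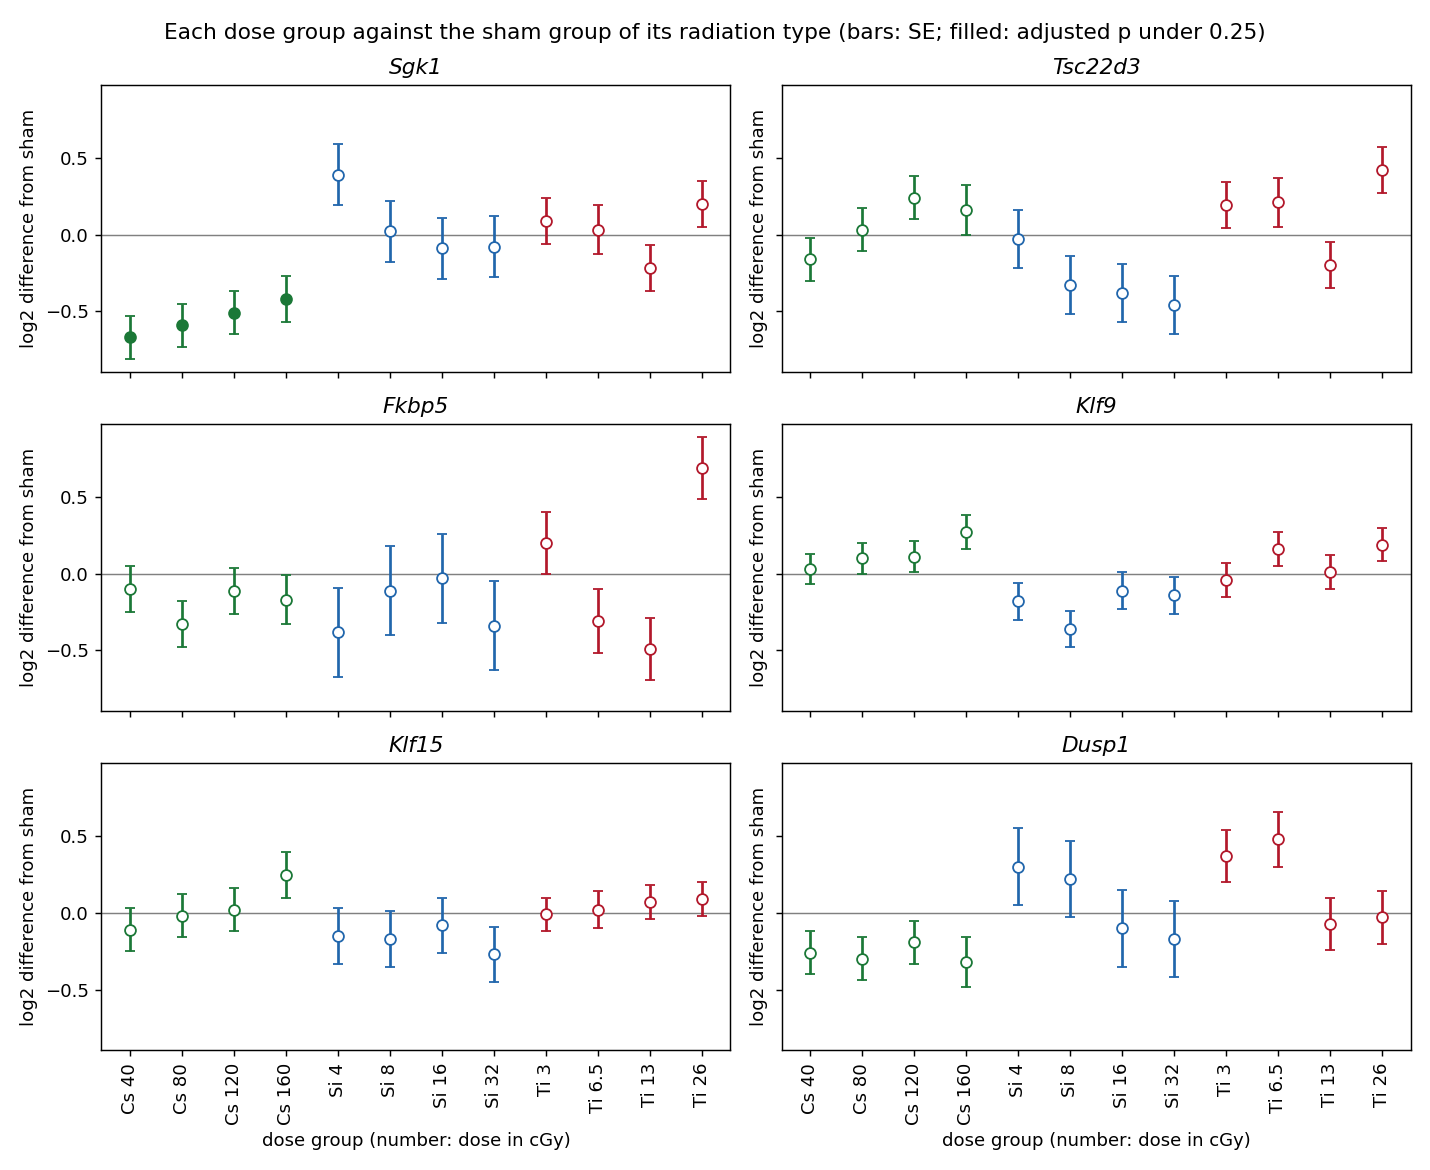
Log2 difference of each dose group from the sham group of its radiation type (y axis, with SE bars) for the 6 genes in 12 dose groups (x axis), filled where the adjusted p was under 0.25. Filled points are seen for Sgk1 at the 4 Cs doses, from -0.67 to -0.42, and for no other gene.

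None of the other 5 genes was called in gamma-exposed hearts at any dose or for all doses in limma. Across the 4 Cs doses combined, Tsc22d3 differed from Cs sham by 0.07 (SE 0.12, 95% interval -0.18 to 0.31) and Klf15 by 0.03 (SE 0.11, -0.19 to 0.26). Klf9 differed by 0.12 (SE 0.08, -0.04 to 0.29), Fkbp5 by -0.17 (SE 0.17, -0.52 to 0.17) and Dusp1 by -0.30 (SE 0.16, -0.61 to 0.01). Unadjusted p-values under 0.05 were seen at 80 cGy for Fkbp5 (-0.33, SE 0.15, adjusted p = 0.678 in limma) and Dusp1 (-0.30, SE 0.14, adjusted p = 0.719), and for 6.87% of all genes. At 160 cGy Klf9 stood 0.27 above sham (SE 0.11, adjusted p = 0.262 in limma), just outside the threshold. It was called there under trend and robust moderation (adjusted p = 0.146 in limma), where 1715 of 19505 genes were called. It was also called under a filter on dim genes (adjusted p = 0.172 in limma), where 1837 of 12594 genes were called. It was not called without the batch term, in batch 1 alone, with array medians aligned or with a replicate block. The highest heart, replicate 4 (9.50), is among the arrays of doubtful batch, and Klf9 was 0.44 higher in batch 2 than in batch 1.

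Fkbp5 varied most between groups, over a span of 1.23 in the means, and it was highest in the hearts given 26 cGy of Ti. The Ti sham hearts were close together at 8.04, 7.93, 8.06, 8.16 and 7.99. At 3 cGy the levels were 8.43, 8.75, 7.86, 8.20 and 7.94, at 6.5 cGy 7.85, 7.77, 7.76 and 7.55, and at 13 cGy 7.52, 7.64, 7.64, 7.32 and 7.58. At 26 cGy they were 8.12, 9.30, 9.34, 8.10 and 8.75. The hearts at 6.5 and at 13 cGy all lay below the sham hearts, as those of 1.54% and 0.954% of genes did, while 3 of 5 hearts at 26 cGy lay above all of them. At 6.5 cGy, replicate 3 (7.76) is among the arrays of doubtful batch. Fkbp5 was 0.34 lower in batch 2 than in batch 1, so counting that array to batch 2 would raise its level. Before batch adjustment replicate 3 was at 7.93, the level of the lowest sham heart after adjustment. The adjustment raised replicate 4, the batch 2 heart of this group, from 7.38 to 7.55. Raised in the same way, replicate 3 would lie above the lowest sham heart, and the separation at 6.5 cGy would be lost. The levels were not refitted with this array in batch 2. The pattern over dose was down in the middle and up at the top, and the B-spline of dose passed for Fkbp5 (adjusted p = 0.101 in limma), against 1.06% of genes. It passed in each of 24 fits that left out a heart (adjusted p of 0.0612 to 0.153) but not without the batch term (adjusted p = 0.269).

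Single doses of Ti were not called for Fkbp5. The difference from Ti sham was 0.69 (SE 0.20, 95% interval 0.27 to 1.10, adjusted p = 0.486 in limma) at 26 cGy, a dose at which 0% of genes were called while 7.08% had an unadjusted p under 0.05. At 13 cGy it was -0.49 (SE 0.20, adjusted p = 0.479), against 0.426% of genes called. Against the sham hearts of all 3 types together, an alternative chosen after seeing the data, the difference at 26 cGy was 0.79 (SE 0.18, adjusted p = 0.159 in limma). It was called there, as were 19 of 19505 genes. On values without batch adjustment, the means at 26 cGy were 8.91 in batch 1 (3 hearts) and 8.53 in batch 2 (2 hearts), against 8.18 and 7.91 in Ti sham. The 2 hearts at 9.30 and 9.34, replicates 2 and 3, also differed from the rest of their group in clock genes: Arntl was at 7.70 and 7.64 in them and at 5.56 to 5.76 in the other 3. Dbp, a clock output, was at 7.91 and 8.10 in them and at 10.69 to 10.74 in the others. The heart with Fkbp5 at 8.75, replicate 5, had Arntl at 5.59. What part the clock genes had in the Fkbp5 levels was not tested.

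Tsc22d3 was also highest at 26 cGy of Ti, with hearts at 8.55, 8.85, 8.69, 8.24 and 8.61 against 7.99, 8.31, 8.19, 8.43 and 7.92 in Ti sham. The ranges overlapped in a single heart, replicate 4, and the difference was 0.42 (SE 0.15, adjusted p = 0.599 in limma). At 13 cGy its hearts were at 7.57 to 8.20, with a mean of 7.97 ± 0.24 (n = 5). The spline of dose passed for Tsc22d3 in Ti-exposed hearts (adjusted p = 0.235 in limma), and it still passed in 11 of 24 fits that each left out a heart (adjusted p of 0.153 to 0.332). In Si-exposed hearts Tsc22d3 was highest in sham (8.39 ± 0.34, n = 4) and at 4 cGy (8.38 ± 0.18, n = 5), and lowest at 32 cGy (7.95 ± 0.24, n = 5). The difference at 32 cGy was -0.46 (SE 0.19, adjusted p = 0.777 in limma). At Cs 40 cGy the 5 hearts lay between 7.88 and 7.98, the narrowest spread of any group for this gene.

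For Klf9 the contrast between the Cs and the Si exposures was called in the main fit, as were 2.20% of genes, but most alternatives did not keep the call. Over all Cs doses it differed from sham by 0.12 (adjusted p = 0.866 in limma) and over all Si doses by -0.23 (SE 0.09, adjusted p = 0.299), and the difference between these effects was 0.35 (SE 0.12, adjusted p = 0.246 in limma). The call was close to the threshold. It was kept in 26 of 72 fits that each left out a heart, and in 5 of 12 alternatives. It was lost at a threshold of 0.05, without a batch term (0.57, adjusted p = 0.261), in batch 2 alone (0.37, adjusted p = 0.756), with array medians aligned (0.32, adjusted p = 0.758), with other samples in the fit (0.33, adjusted p = 0.378) and with a replicate block (0.34, adjusted p = 0.329). On the values as deposited the difference was -0.04 (SE 0.32, adjusted p = 0.929). Klf9 also differed by 0.44 between batch 2 and batch 1, the largest batch difference among the 6 genes, and Si sham lay wholly in batch 2. The Si sham hearts had 9.33, 9.27, 8.98 and 9.16, and the hearts at 8 cGy had 8.89, 8.73, 8.83, 9 and 8.54. Of the latter, 1 reached above the lowest sham heart (difference -0.36, SE 0.12, adjusted p = 0.732 in limma). At 26 cGy of Ti the hearts were at 9.20 to 9.38, against 9.03 to 9.24 in Ti sham.

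Klf15 varied least between groups, over a span of 0.42 in the means, from 6.61 ± 0.13 (n = 5) at Cs 40 cGy to 7.03 ± 0.29 (n = 4) in Si sham. It was not called in any of the 12 dose comparisons, and its unadjusted p was not under 0.05 in any of them. For all Si doses together it differed by -0.26 (SE 0.13, adjusted p = 0.414 in limma). The hearts at 160 cGy of Cs (6.93 to 7.01) and at 26 cGy of Ti (6.88 to 7.03) were close together, while the Cs sham hearts ran from 6.45 to 7.05. Of 5 genes for metabolic enzymes, a glucose transporter and a channel subunit that KLF15 acts on in mouse tissues, 1 was called at a single dose (Gpt, up at 120 cGy of Cs, where 0.682% of all genes were called). Prodh, a proline-degrading enzyme among them, fell by 0.43 (SE 0.09, adjusted p = 0.0222 in limma) for all Si doses together, where 3.15% of genes were called, and was also lower in Cs sham than in Si sham (-0.33, SE 0.11, adjusted p = 0.154).

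Dusp1 had its highest means in the low-dose ion groups. In Ti-exposed hearts it was at 10.71, 10.59, 9.96, 10.67 and 10.38 at 3 cGy and at 10.11, 11.09, 10.83 and 10.38 at 6.5 cGy, against 10.47, 10.41, 9.97, 9.90 and 9.74 in Ti sham. The ranges overlapped, and the differences of 0.37 (SE 0.17, adjusted p = 0.549 in limma) and 0.48 (SE 0.18, adjusted p = 0.257) were not called, against 0.0103% and 5.60% of genes called. The 6.5 cGy difference was called in limma with array medians aligned (adjusted p = 0.242), under the filter on dim genes (adjusted p = 0.198) and with a replicate block (adjusted p = 0.247). In these fits 1482 of 19505, 1625 of 12594 and 1178 of 19505 genes were called at that dose. It was not called without the batch term or in batch 1 alone. Replicate 3 at 6.5 cGy (10.83) is among the arrays of doubtful batch, and Dusp1 was 0.30 higher in batch 2 than in batch 1. In Si-exposed hearts the mean was 10.52 ± 0.47 at 4 cGy and 10.44 ± 0.33 at 8 cGy (n = 5 each), against 10.15 ± 0.35 (n = 4) in Si sham. The 5 Cs sham hearts lay between 10.27 and 10.42, and the 4 hearts at 160 cGy between 9.66 and 10.09, all below sham (difference -0.32, SE 0.16, adjusted p = 0.383 in limma). The 5 hearts at 80 cGy (9.81 to 10.26) also lay below all sham hearts. Such separation was seen in 2.07% of all genes at 160 cGy and in 0.872% at 80 cGy.

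In the Si groups 0 of the 6 genes were called at any dose in limma. An unadjusted p under 0.05 was seen for 1 gene at 8 cGy (Klf9) and 1 at 32 cGy (Tsc22d3), against 5.16% and 6.41% of all genes. The genes called in all were few as well: 0.159%, 0.128%, 0.0205% and 0.0513% from the lowest to the highest dose. For all Si doses together 3.15% of genes were called and 0 of the 6, and for all Ti doses 1.72% and 0 of the 6, with 2 and 0 of them at an unadjusted p under 0.05. Between sham groups 0 of the 6 were called, where 5.67% of genes were called between Cs and Si sham, 0.113% between Cs and Ti sham and 6.35% between Si and Ti sham. Klf15 had an unadjusted p under 0.05 between Cs and Si sham (difference -0.31, SE 0.15, adjusted p = 0.383 in limma), as did 12.8% of all genes. Straight lines of dose called 0% of genes in Si and 0% in Ti, while 5.13% and 5.65% had an unadjusted p under 0.05, among them Tsc22d3 in Si and Fkbp5 in Ti. The spline called 0.267% of genes in Si and 0 of the 6.

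Across the 72 hearts 14 of 15 pairs of these genes had a correlation above 0, and 8 of 15 had an adjusted permutation p under 0.05. These permutations shuffled hearts over all groups, so shared group means enter the p-values. Tsc22d3 was correlated with each of the others (r = 0.26 to 0.52), while several pairs were near 0. After group means were removed, r fell from 0.30 to 0.11 for Sgk1 and Fkbp5. It fell from 0.33 to 0.16 both for Tsc22d3 and Klf9 and for Klf9 and Klf15. For Sgk1 and Tsc22d3 it fell from 0.40 to 0.26, for Tsc22d3 and Klf15 from 0.41 to 0.35, and for Tsc22d3 and Dusp1 from 0.26 to 0.23. The highest correlation was between Sgk1 and Dusp1 (Pearson r = 0.55, permutation p = 1e-05, adjusted p = 7.5e-05 over the 15 pairs, Spearman rho = 0.55, permutation p = 1e-05). The permutations could give no smaller p. The value was 0.49 without the 2 hearts farthest from the Sgk1 median, 0.50 after group means were removed, and 0.53 and 0.59 within batch 1 (43 hearts) and batch 2 (29 hearts). Tsc22d3 and Fkbp5 followed with r = 0.52 (permutation p = 1e-05, rho = 0.44, permutation p = 0.00017). That pair stood at 0.47 without the 2 farthest hearts, 0.46 after group means were removed, and 0.74, 0.37 and 0.26 within the 24 Ti, Cs and Si hearts, a difference that was not tested. Fkbp5 and Dusp1 had r = -0.06 (permutation p = 0.591), and Sgk1 and Klf9 r = 0.03 (permutation p = 0.804). The genes whose levels were most like Sgk1, by Pearson r over the 72 hearts among 19504 other genes, were Depp1 (0.731), Sik1 (0.689) and S1pr1 (0.689), with Dusp1 at rank 16. Those most like Dusp1 were Btg2 (0.837), Fos (0.778) and Zfp36 (0.755), an antiproliferative gene, a transcription factor subunit and an mRNA decay factor that are all immediate early genes. Fkbp5 was most like Fam107a (0.702), Bcl2l1 (0.671) and Zbtb16 (0.645), and Tsc22d3 most like Fam107a (0.651), Rasgef1b (0.649) and Bcl2l1 (0.632). Klf9 was most like Herpud1 (0.699), Timp3 (0.687) and Klhl38 (0.686), and Klf15 most like Rhobtb1 (0.559), Zbtb16 (0.541) and Lrrc10 (0.525).

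**Figure D4:**
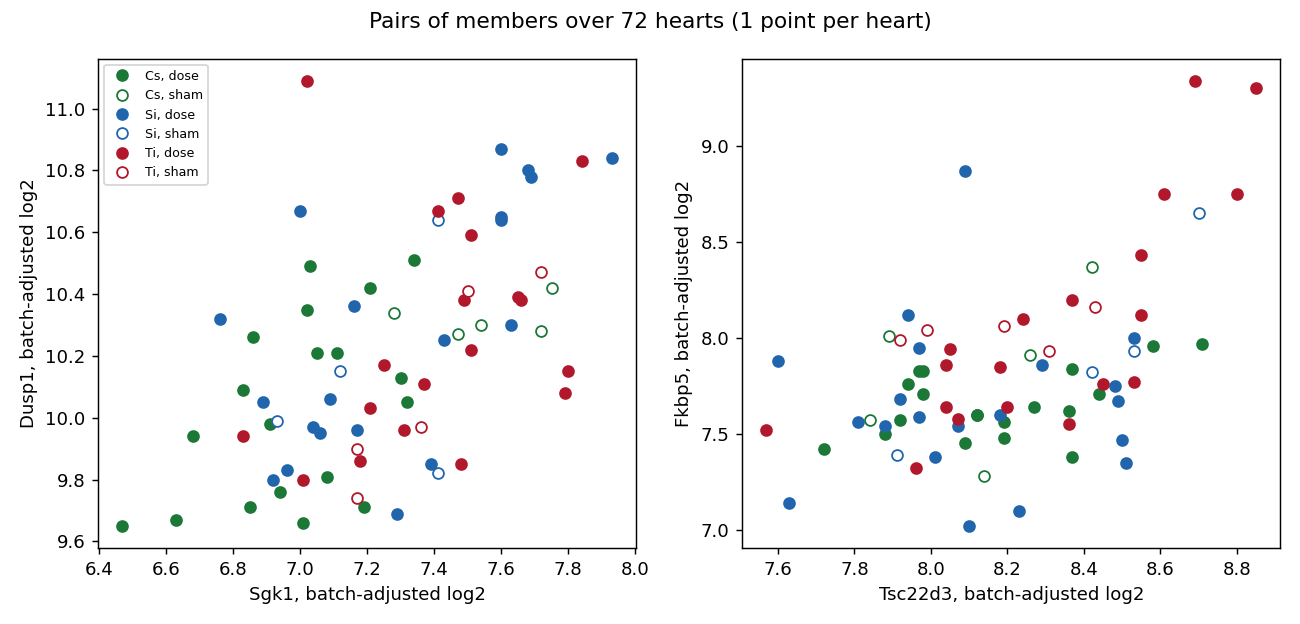
Batch-adjusted log2 levels of Dusp1 against Sgk1 (left) and of Fkbp5 against Tsc22d3 (right), with a point per heart for 72 hearts, coloured by radiation type and open for sham. Pearson r is 0.55 on the left and 0.52 on the right.

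Nr3c1, which encodes the glucocorticoid receptor, had group means of 6.80 to 7.16 and was called in no dose comparison in limma. Of 11 measured genes of the receptor's machinery, Nr3c2, which encodes the mineralocorticoid receptor, was up at Cs 80 cGy (0.39, SE 0.10, adjusted p = 0.215 in limma), at Cs 120 cGy (0.39, SE 0.10, adjusted p = 0.208), at Ti 6.5 cGy (0.64, SE 0.12, adjusted p = 0.0633) and at Ti 13 cGy (0.55, SE 0.11, adjusted p = 0.113). Hsp90aa1, a chaperone that holds the unbound receptor ready for hormone, fell by 0.47 (SE 0.11, adjusted p = 0.0802 in limma) at Cs 120 cGy. It was also higher in Cs sham than in Si sham, by 0.59 (SE 0.11, adjusted p = 0.00231 in limma). At Cs 160 cGy H6pd rose by 0.25 (SE 0.09, adjusted p = 0.233) and Ncoa1 fell by 0.25 (SE 0.09, adjusted p = 0.234). Hsd11b1 rose by 0.38 (SE 0.11, adjusted p = 0.219) for all Cs doses together. Of all genes, 0.482%, 0.682% and 6.91% were called at Cs 80, 120 and 160 cGy, and 0.436% for all Cs doses. At Ti 6.5 and 13 cGy it was 5.60% and 0.426%.

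Other glucocorticoid-induced genes did not share a direction at every dose. Those called only fell at Cs 40, 80 and 120 cGy and at Ti 13 cGy. At Cs 160 cGy and Ti 6.5 cGy some fell and some rose. Of 29 measured, 2 fell and 0 rose at Cs 40 cGy, 3 fell and 0 rose at 80 and again at 120 cGy, and 2 fell and 4 rose at 160 cGy. The share of all genes called was 0.22%, 0.482%, 0.682% and 6.91% at these doses. The median difference of the list was -0.04, -0.01, 0.05 and 0.09 in that order, and that of all genes was between -0.01 and 0. Errfi1, a feedback inhibitor of the EGF receptor, fell at all 4 Cs doses, by 0.92 (SE 0.17, adjusted p = 0.0348 in limma) at 40 cGy. Cdkn1a, a cell cycle inhibitor that p53 also induces, fell by 1.5 (SE 0.26, adjusted p = 0.00965 in limma) at 120 cGy and rose by 1.52 (SE 0.32, adjusted p = 0.12) at Si 4 cGy. Both genes were higher in Cs sham than in Si sham, Errfi1 by 1.02 (SE 0.21, adjusted p = 0.00797 in limma) and Cdkn1a by 1.57 (SE 0.31, adjusted p = 0.00484). Irs2, an adaptor of the insulin receptor, fell by 0.48 (SE 0.11, adjusted p = 0.177 in limma) at 40 cGy, while Pdk4, which restrains glucose oxidation, rose by 1.04 (SE 0.33, adjusted p = 0.163) at 160 cGy. At Ti 13 cGy, where 0.426% of all genes were called, 4 of the 29 fell and 0 rose, among them Pdk4 (-1.06, SE 0.28, adjusted p = 0.232 in limma), Zbtb16, a zinc finger repressor (-0.99, SE 0.18, adjusted p = 0.0523 in limma), and Bcl6 (-0.72, SE 0.14, adjusted p = 0.0671). At Ti 6.5 cGy, where 5.60% of all genes were called, 4 rose and 2 fell. At Ti 26 cGy 0 were called in limma, with 7 at an unadjusted p under 0.05, against 7.08% of all genes.

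Of 17 measured genes upstream or downstream of the SGK1 kinase, 0 were called at Cs 40 or 80 cGy in limma. At an unadjusted p under 0.05 there were 1 and 0 of them, against 5.12% and 6.87% of all genes. Kcne1, a potassium channel subunit, fell by 0.61 (SE 0.17, adjusted p = 0.246 in limma) at 120 cGy. At 160 cGy Foxo3, a transcription factor that the kinase holds out of the nucleus, rose by 0.58 (SE 0.16, adjusted p = 0.0995 in limma) and the related kinase gene Sgk3 fell by 0.27 (SE 0.10, adjusted p = 0.234). Of the gene families at 160 cGy of Cs, 2 of 11 measured FKBP genes rose, 2 of 15 KLF genes rose and 1 fell, and 2 of 10 DUSP genes rose, where 6.91% of all genes were called. At Cs 80 cGy 2 KLF genes fell, Klf2 and Klf4, which are also immediate early genes.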

How the data were processed

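Hearts were profiled on Clariom S Mouse arrays. The authors deposited log2 values made with RMA (version not given in the sources used here). Since array medians differed (4.17 to 6.35), 22206 transcript-cluster probe sets were quantile normalized again, and the number of arrays limits the precision. Of these, 19572 had 1 gene symbol and 2634 had none. For 55 genes with several probe sets the brightest was kept, which left 19505 genes.

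Dose groups were compared with their own sham within each radiation type in limma 3.58.1 (R 4.3.3), with batch as a covariate. All doses combined, radiation types and sham groups were compared in a single fit of 72 arrays. Dose was also fitted as a linear term and, with the splines package (4.3.3), as a B-spline of 3 degrees of freedom. P-values were adjusted by Benjamini-Hochberg over all genes and called under 0.25. Plotted and listed levels had batch removed with the 15 groups kept. The fits were tested on simulated data. Correlations used 100000 permutations. Motifs were searched on both strands.

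The 6 genes and all gene lists were chosen with earlier results of these data known. Named were the 6 genes, at most the 4 smallest adjusted p-values of a list in a dose or sham comparison, and the 3 genes most like each member. Alternatives changed the threshold, batch term, normalization, filter, moderation, probe set rule, samples and replicate block.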

Additional observations from a re-analysis of the deposited data

Results flagged for a closer look

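In 4 of 90 groups of a gene, a single heart stood apart from the rest of its group by Dixon's criterion, which chance does in about 1 in 20 groups. Klf9 at Si 4 cGy was 9.3 in replicate 5, and the nearest heart was at 8.97. Klf15 at Cs 120 cGy was 6.21 in replicate 2, with the nearest heart at 6.78. Dusp1 at Si 4 cGy was 9.69 in replicate 1, with the nearest heart at 10.64, and at Si 16 cGy it was 10.8 in replicate 3, with the nearest heart at 10.05.

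The difference between Cs and Si in the effect of all doses against sham was called in limma for Sgk1, at -0.64 (SE 0.19, adjusted p = 0.142), and for Klf9, at 0.35 (SE 0.12, adjusted p = 0.246). In that contrast 2.20% of genes were called. The Klf9 call was kept in 5 of 12 alternatives. Si sham lay wholly in batch 2, and its clock genes stood apart from those of Cs sham (Arntl at 5.30 against 7.48). Their part in these differences was not tested.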

How the results depend on the processing

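Sgk1 stayed lower than Cs sham at 40 cGy under 14 alternatives (-0.79 to -0.49) and was called under 7 of them, and for all Cs doses together it was called under 11 of 14 (-0.70 to -0.39). Over the 12 dose comparisons 4 calls were made among the 6 genes. There were 0 at a threshold of 0.05, 0 without the batch term, 0 in batch 1 alone (8 comparisons), 1 in batch 2 alone (10 comparisons), 9 on the values as deposited, 2 with array medians aligned, 2 with all 72 arrays in the fit and 1 against the sham hearts of all types. As deposited, 7466 of 19505 genes were called at Ti 6.5 cGy, 6669 at Si 32 cGy, 1330 at Ti 3 cGy and at most 20 at any other dose. In batch 2 alone, 400 genes were called at Cs 80 cGy, where the single call was made. For all doses, 1 call became 3 without the batch term, 0 in either batch alone, 0 as deposited, and 2 with 2 arrays of doubtful batch moved or left out and with dim genes removed. Without the batch term 34, 1658 and 57 of 19505 genes were called for all Cs, Si and Ti doses. In the same order it was 90, 1137 and 769 with the 2 arrays moved and 80, 983 and 510 with them left out. With dim genes removed it was 170, 841 and 582 of 12594. Between radiation types, 2 calls became 0 at 0.05, 1 without the batch term, 0 in batch 2 alone, 0 as deposited, 0 with medians aligned and 1 with other samples in the fit. In batch 1 alone only Cs against Ti could be fitted (0 calls), so the Cs and Si contrast that holds both calls was not refitted there. Between sham groups, 0 became 2 without the batch term and 4 as deposited. Without the batch term 1473 genes were called between Cs and Si sham, 0 between Cs and Ti sham and 667 between Si and Ti sham. Straight lines of dose went from 0 to 6 as deposited, and splines from 3 to 0 at 0.05, 0 without the batch term and 11 as deposited. As deposited, most genes were called in several of these fits: 18201 of 19505 between Cs and Si sham, 17194 for the Si line, 10284 for the Si spline and 13201 for the Ti spline. The Klf9 difference between Cs and Si reversed to -0.04 as deposited. Sgk1 at Cs 160 cGy was called under 3 of 13 alternatives, and not with the 2 doubtful arrays moved or left out. With single hearts left out, calls ranged from 0 to 5 for doses, 0 to 4 for all doses, 0 to 2 between types, 0 to 2 between shams, 0 to 2 for lines and 2 to 4 for splines. At 40 cGy the Sgk1 call was lost without Cs sham replicate 4 or Cs 40 cGy replicates 1 or 2 (adjusted p up to 0.392), at 80 cGy in 7 of 24 such fits, and it was kept in 11 and 13 of 24 at 120 and 160 cGy. Same-numbered hearts did not deviate together (median r = 0 over 138 pairs). With a replicate block, 3 dose calls were made (Sgk1 at 40 and 80 cGy of Cs, Dusp1 at Ti 6.5 cGy), 1 for all doses and 1 between types, and trends were not fitted with it. Counts over all genes moved more, at Cs 40 cGy from 43 to between 0 and 60, at Cs 160 cGy from 1347 to between 20 and 1837, and at Ti 6.5 cGy from 1093 to between 40 and 7466. The causes were not tested.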
